A study of Mus musculus with 3 samples.

Results

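ISG15 is a small ubiquitin-like protein that is joined to other proteins by its own chain of enzymes. UBA7 (the E1 enzyme) activates it, UBE2L6 (the E2 enzyme) carries it, and E3 ligases such as HERC6, the main one in mouse, and TRIM25 help to attach it to targets. USP18 cuts it off again, and also dampens signalling at the type I interferon receptor. In many cell types the genes of this pathway are switched on by interferon through transcription factors that include STAT2 and IRF9. These act at a DNA motif called the interferon-stimulated response element (ISRE).

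The ISG15 conjugation pathway was taken here as 6 mouse genes, Isg15, Uba7, Ube2l6, Herc6, Trim25 and Usp18, chosen by name. Of these, 5 had a probe named for them, with 8 probes among 45281 in all, against 19057 named genes with a probe in the whole series. Isg15 and Uba7 had 1 probe each, and Ube2l6, Trim25 and Usp18 had 2 each. No probe was named for Herc6 in the annotation used, so Herc6 was not analysed here.

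The data are Illumina bead array intensities of total RNA from NIH/3T3 cells, an immortalized mouse fibroblast line, with 3 groups. Cells of the first group, called mock, were mock treated. Those of the 5aza-dC group received 1 uM 5aza-dC, renewed each day for 3 days, and the recovery group had the same exposure and then 14 days of growth without the drug. All groups were grown in the same medium with fetal calf serum. 5aza-dC (decitabine) is an analog of deoxycytidine that becomes part of new DNA and traps DNA methyltransferases there, so that methylation is lost as cells divide. Each group has 1 deposited column, which is the mean of 2 arrays, and the levels on the 2 arrays were computed back from both deposited tables. The series description speaks of duplicate experiments, but nothing states whether the 2 arrays are separate cultures or repeat measurements of 1 RNA, so the errors and p-values below measure only the spread between these arrays, which may be technical.

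The promoter sequences of the members, taken from RefSeq (GRCm38.p6), are shown first because the genes moved together. Promoters of 5 of the 6 genes were in the table used, and that of Usp18 was not. The ISRE was searched as an exact GAAA, then NN, then GAAA, on both strands. The stretch ran from 250 bases before each start site to 50 bases after it. It matched 3 times, with overlaps, in Isg15 and not at all in Uba7, Ube2l6, Trim25 or Herc6, against 3.44% of all 32851 promoters with at least 1 match. The middle match of Isg15 begins 72 bases before the start site, in chr4:156200871-156200900 on the minus strand, and is printed with the match in capitals.

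Isg15 ISRE: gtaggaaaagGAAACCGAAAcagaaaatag

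A second motif, the gamma-activated site, searched as TTC, then NNN, then GAA, on both strands, matched in none of these promoters, against 8.3% of all. A missing match says only that these letters are not in this window, and near-matches were not counted. CpG dinucleotides, the sites of DNA methylation, are few in some of the promoters and more frequent in others. The promoter of Uba7 holds 2 CpGs and that of Isg15 holds 6, against a median of 7 over all promoters, while those of Ube2l6 and Trim25 hold 15 and 18. Those counts are over 300 bases, and the last 120 bases before the start site hold only part of these CpGs. In that stretch there are 3 in Isg15, 1 in Uba7, 4 in Ube2l6 and 5 in Trim25, a smaller difference. These stretches are printed below with each CpG in capitals. They lie at chr4:156200819-156200938 (minus strand) for Isg15, chr9:107975447-107975566 (plus strand) for Uba7, chr2:84798708-84798827 (plus strand) for Ube2l6 and chr11:88999283-88999402 (plus strand) for Trim25. DNA methylation itself was not analysed here.

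Isg15: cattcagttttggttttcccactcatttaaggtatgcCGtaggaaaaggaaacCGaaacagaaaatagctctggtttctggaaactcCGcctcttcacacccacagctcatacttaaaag
Uba7: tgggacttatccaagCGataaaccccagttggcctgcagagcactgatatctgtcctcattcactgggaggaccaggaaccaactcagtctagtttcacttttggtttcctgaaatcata
Ube2l6: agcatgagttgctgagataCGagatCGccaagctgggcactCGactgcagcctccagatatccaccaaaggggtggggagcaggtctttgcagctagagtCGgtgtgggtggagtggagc
Trim25: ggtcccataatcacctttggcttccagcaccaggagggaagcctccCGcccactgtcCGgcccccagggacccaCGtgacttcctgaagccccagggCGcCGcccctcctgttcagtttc

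Across the series, the median signal was 61.1 to 63.8 and 31.1% to 33.4% of the probes were detected at a detection p-value below 0.01 in a group, which left 8982 named genes detected in at least 1 group. The normalized levels of the 2 arrays of a group correlated with r = 0.996 to 0.998 over all probes, and those of arrays of different groups with r = 0.976 to 0.990. Of 10 fibroblast markers 9 were detected in each group. The signals of all 10, before normalization, summed to 17969.7 (mock), 13152.1 (5aza-dC) and 16840.1 (recovery), where the mean signal over all probes was 321, 277 and 255. In limma, a linear model was fitted to each detected gene, with p-values adjusted over all of them. By it, 4 of the 9 fell and 0 rose in 5aza-dC minus mock, where 27% and 30.1% of all detected genes did. At an unadjusted p below 0.05 the counts were the same, but no share over all genes was computed at that threshold. Among those that fell were S100a4 (-1.37 ± 0.12) and Col1a1 (-0.64 ± 0.10, log2, SE, n = 2). In recovery minus 5aza-dC 6 rose and 0 fell by limma, where 21.6% and 20.9% of genes did, and the unadjusted counts were again the same. The part of these shifts in the results was not tested. Of 12 blood and immune cell markers 9 were measured and 0 were detected in any group, with summed signals of 575.1, 554.0 and 540.5. In such bulk RNA, more cells that express a gene and more RNA per cell cannot be told apart.

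Setting 5aza-dC against mock asks how the pathway's transcripts differ in cells exposed to the drug. Transcripts of the modifier, its E1 and E2 enzymes, 1 E3 ligase and the protease were all higher in 5aza-dC, from Trim25 at 3.02-fold to Usp18 at 69.0-fold. All 5 measured members rose by limma (Benjamini-Hochberg adjustment at 0.05 over 8982 genes), where 30.1% of all detected genes rose. All 5 were also at least 2-fold higher between the deposited columns, where 6.6% of all detected genes were. In all 5 both 5aza-dC arrays lay above both mock arrays, as in 40.2% of detected genes. Their median log2 difference was 3.36, against 0.01 over all detected genes.

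**Figure D1:**
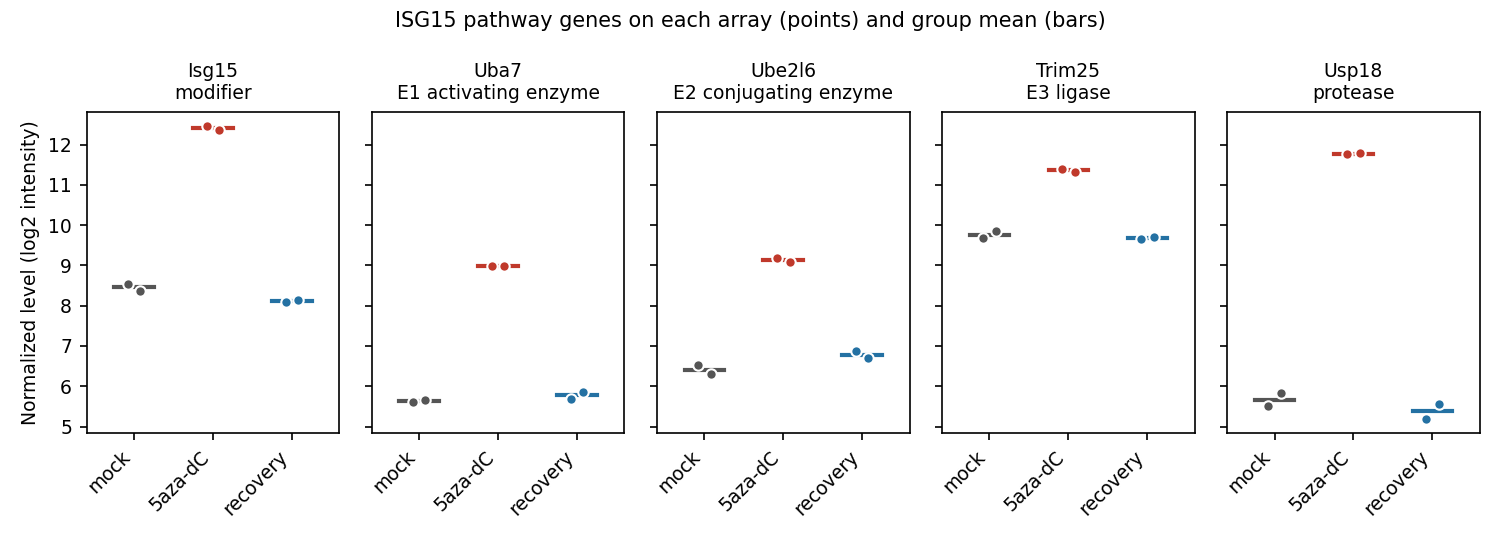
Normalized level (vertical axis, log2 intensity) of the 5 measured genes of the ISG15 pathway on each of the 2 arrays (points) of mock, 5aza-dC and recovery, with the mean of each group (bars). In each gene both 5aza-dC arrays lie above all 4 other arrays, and the mock and recovery arrays lie close together. Levels of different genes come from different probes and are not comparable.

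Isg15 encodes the modifier itself. Its deposited signal went from 445.3 (mock) to 5283.5 (5aza-dC) and 282.2 (recovery). On the arrays its log2 level was 8.54 and 8.37 in mock, 12.46 and 12.35 in 5aza-dC, and 8.10 and 8.14 in recovery. Both 5aza-dC arrays were far above the others, and both recovery arrays were slightly below both mock arrays. Isg15 rose in 5aza-dC by 3.95 ± 0.09 on the log2 scale (SE, n = 2 arrays per group, adjusted p = 9.04e-07, limma), the 24th largest rise of the 8982 genes.

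Uba7 encodes the E1 enzyme, which activates ISG15 at the start of the chain. Its signal went from 100.4 (mock) to 539.9 (5aza-dC) and 91.3 (recovery). The log2 levels were 5.60 and 5.65 in mock, 8.99 and 8.99 in 5aza-dC, and 5.69 and 5.86 in recovery. After normalization the recovery arrays of Uba7 lay just above its mock arrays, with no overlap. Before normalization its signal was lower in recovery than in mock. The rise in 5aza-dC was 3.36 ± 0.08 (log2, SE, n = 2, adjusted p = 1.02e-06, limma), or 10.3-fold.

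Ube2l6 encodes the E2 enzyme, which takes ISG15 over from UBA7. On the brighter of its probes the signal went from 138.5 (mock) to 594.5 (5aza-dC) and 138.3 (recovery). The log2 levels were 6.52 and 6.29 in mock, 9.19 and 9.10 in 5aza-dC, and 6.87 and 6.7 in recovery. Again the 5aza-dC arrays stood apart and, after normalization, the recovery arrays lay a little above the mock arrays. Before normalization the signals of mock and recovery were nearly the same. Ube2l6 rose in 5aza-dC by 2.74 ± 0.11 (log2, SE, n = 2, adjusted p = 5.93e-06, limma). The dimmer probe of Ube2l6 gave the same pattern, with mean log2 levels of 5.61 (mock), 8.22 (5aza-dC) and 5.85 (recovery).

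Trim25 encodes a RING-type E3 ligase that also acts with ubiquitin in the RIG-I antiviral pathway. Its brighter probe had signals of 1087.7 (mock), 2559.9 (5aza-dC) and 740.4 (recovery). The log2 levels were 9.68 and 9.84 in mock, 11.39 and 11.33 in 5aza-dC, and 9.66 and 9.70 in recovery. Mock and recovery arrays overlapped, and the 5aza-dC arrays were above both. The rise in 5aza-dC was 1.59 ± 0.08 (log2, SE, n = 2, adjusted p = 1.83e-05, limma), the smallest of the 5 members, and it ranked 240th of all genes. The other Trim25 probe was detected in no group (detection p-values of 0.288, 0.158 and 0.426), so that the mean of both probes gave a difference of 0.84.

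Usp18 encodes the protease that removes ISG15 and restrains interferon signalling. Its brighter probe had signals of 104.3 (mock), 3398.6 (5aza-dC) and 80.5 (recovery). The log2 levels were 5.50 and 5.82 in mock, 11.76 and 11.78 in 5aza-dC, and 5.20 and 5.55 in recovery. Mock and recovery arrays overlapped near the lower end of the scale, while the 5aza-dC arrays were among the bright ones. The rise of 6.11 ± 0.15 (log2, SE, n = 2, adjusted p = 1.02e-06, limma) was the 2nd largest of the 8982 genes. The other Usp18 probe had signals of 81.0, 2199.6 and 70.0, and in recovery it was not detected (detection p-value of 0.0123).

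The mock levels of Uba7, Ube2l6 and Usp18 lie near background, and the size of their differences depended on how background was treated. Without background correction the rises were 4.97 for Usp18, 2.35 for Uba7 and 2.09 for Ube2l6, and with the authors' background-subtracted values the column differences were 6.63, 3.92 and 3.05. All were in the same direction.

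The comparison of recovery with 5aza-dC asks what becomes of these transcripts after the drug is withdrawn. All 5 measured members fell by limma, where 20.9% of all detected genes fell, and all 5 were at least 2-fold lower between the columns, where 4.39% of genes were. Usp18 differed by -6.40 ± 0.15, the largest fall of the 8982 genes, and Isg15 by -4.28 ± 0.09, the 17th largest (log2, SE, n = 2). The enzymes of activation and conjugation followed with -3.21 ± 0.08 for Uba7, -2.35 ± 0.11 for Ube2l6 and -1.68 ± 0.08 for Trim25. Adjusted p-values ran from 8.78e-07 for Isg15 to 2.44e-05 for Trim25 (limma with Benjamini-Hochberg adjustment). This comparison shares the 5aza-dC arrays with the one above, so its falls are not separate evidence of the rises.

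**Figure D2:**
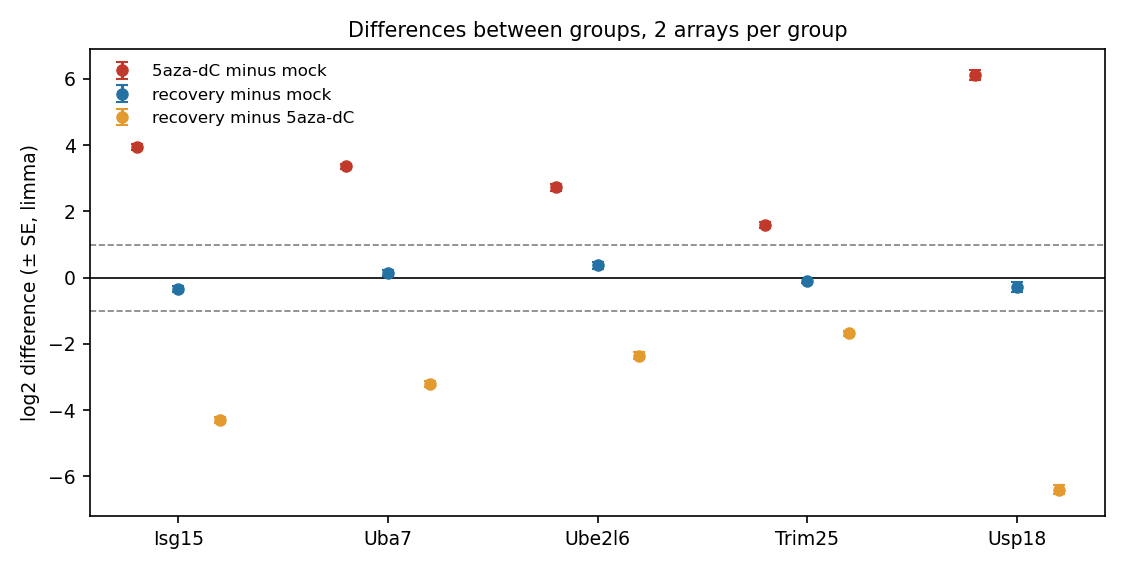
Log2 differences with their SE (limma, 2 arrays per group) of the 5 measured genes in the 3 comparisons, with dashed lines at 2-fold. In 5aza-dC minus mock they run from 1.59 to 6.11, in recovery minus 5aza-dC from -6.40 to -1.68, and in recovery minus mock from -0.34 to 0.38.

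Setting recovery against mock asks how the transcripts compared with mock after 14 days without the drug. The labels give mock no days of exposure or recovery. A difference in time in culture can therefore not be told apart from drug history. No member was 2-fold higher or lower between the columns, where 1.7% of all detected genes were higher and 1.58% lower. By limma 1 member rose and 1 fell, where 22% of all genes rose and 18.4% fell, 40.4% in all. Ube2l6 was higher in recovery by 0.38 ± 0.11 (adjusted p = 0.0283) and Isg15 lower by 0.34 ± 0.09 (adjusted p = 0.024, limma, log2, SE, n = 2). The other members did not pass, with -0.29 ± 0.15 for Usp18, 0.15 ± 0.08 for Uba7 and -0.09 ± 0.08 for Trim25 (adjusted p-values of 0.167, 0.193 and 0.436, limma). The arrays of mock and recovery did not overlap in Isg15, Uba7 and Ube2l6, a separation that 70.9% of all genes showed in one direction or the other.

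Neither of these small recovery differences held throughout. Isg15 did not pass without array 1 of mock (-0.25, adjusted p = 0.066), array 1 of recovery (-0.31, adjusted p = 0.115) or array 2 of recovery (-0.36, adjusted p = 0.0788, limma). Ube2l6 did not pass without array 2 of mock (0.26, adjusted p = 0.0982), array 1 of 5aza-dC (0.39, adjusted p = 0.0517) or array 1 of recovery (0.30, adjusted p = 0.149, limma). When each array was instead scaled to the median over its probes, neither passed (-0.65 and 0.11). That scaling moved the median over all genes to -0.11 for 5aza-dC minus mock, -0.25 for recovery minus mock and -0.15 for recovery minus 5aza-dC, against 0.01, 0.03 and 0.02. It also moved the split of calls over all genes. Of the 2-fold differences in 5aza-dC minus mock, 521 genes were higher and 420 lower in place of 593 and 251. In recovery minus mock they were 73 and 467 in place of 153 and 142 (by limma, 68 and 292 in place of 1980 and 1653). In recovery minus 5aza-dC they were 33 and 516 in place of 80 and 394 (by limma, 30 and 504 in place of 1940 and 1881).

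In the order of their levels, 5aza-dC was highest in each of the 5 genes. In Usp18, Uba7 and Trim25 the difference between recovery and mock did not pass limma. With 2 arrays per group this does not show that the levels are equal.

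Other enzymes that have been linked to ISG15 were listed beside the members. These were HERC-family and ARIH1 ligases and ubiquitin proteases reported to act on ISG15 as well. Of 13 listed, 11 were measured and 9 detected, and in 5aza-dC 0 rose and 1 fell by limma, where 30.1% of genes rose and 27% fell. At an unadjusted p below 0.05, for which no share over all genes was computed, 1 was higher and 3 were lower. Their median difference was -0.13. The one that fell was Arih1, a RING-between-RING ligase (-0.43 ± 0.12, adjusted p = 0.0198, limma). Values for others were -0.46 ± 0.20 for Herc4 and 0.22 ± 0.09 for Usp2, and neither passed. Usp14 did not pass either. It was not detected in 5aza-dC and has only a bound, 1.19-fold lower by its mean levels, which the test does not bear out as a fall. Herc4 and the other HERC genes are relatives of Herc6 and do not stand in for it.

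The closest relatives of single members moved unevenly. Ube2l3 encodes UBCH7, a ubiquitin E2 enzyme close to UBE2L6 in sequence, and differed by 0.03 ± 0.07 (adjusted p = 0.728, limma), beside 2.74 ± 0.11 for Ube2l6. Oasl1 and Oasl2, which carry ubiquitin-like domains as ISG15 does, had bounds of at least 22.2-fold and 21.95-fold higher in 5aza-dC, a bound being given where a gene was not detected in the dimmer group. Among TRIM genes, Trim21, an antibody receptor in the cytosol, rose by 2.89 ± 0.25, and Trim16 fell by 0.91 ± 0.12 (adjusted p-values of 1.38e-04 and 7.98e-04, limma). In this list of 11 genes, 9 were measured, 8 detected, 4 rose and 1 fell, where 30.1% and 27% of all detected genes did, and the median was 0.37. Differences between a member and its relative were not tested.

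Other ubiquitin-like systems, which use the same E1, E2 and E3 logic, were set beside the ISG15 pathway. Of the 7 genes of the ubiquitin list only 2 were measured. Of the detected genes, 1 of 2 in the ubiquitin list rose and none fell, 2 of 5 in the NEDD8 list rose and 2 fell, 1 of 8 in the SUMO list rose and 3 fell, and 0 of 4 in the UFM1 list rose and 1 fell (limma), where 30.1% of all detected genes rose and 27% fell. At an unadjusted p below 0.05, again without a share over all genes, 1 UFM1 gene was higher and 1 lower, and no ubiquitin gene was lower. Their median differences were 0.47, 0.13, -0.04 and -0.01 in that order. Uba6, an E1 enzyme for ubiquitin and for the modifier FAT10, rose by 0.91 ± 0.09 (adjusted p = 2.52e-04, limma). Sumo3, one of the SUMO modifiers, rose by 1.08 ± 0.07, and Ube2f, an E2 enzyme for NEDD8, fell by 0.75 ± 0.09 (adjusted p-values of 5.96e-05 and 7.21e-04, limma).

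A further list covered FAT10, URM1 and the autophagy modifiers (Fau was listed but had no named probe), and 4 of its 10 detected genes rose while 2 fell. These shares lie near the 30.1% and 27% of all detected genes, and the median was 0.12. Ubd encodes FAT10, a modifier induced by interferon gamma and TNF, and had a level in 5aza-dC at least 2.10-fold higher than in mock and at least 2.02-fold higher than in recovery. Atg12, the modifier of autophagosome formation, rose by 0.64 ± 0.14, and Mocs3, which activates URM1, fell by 0.60 ± 0.09 (adjusted p-values of 0.00764 and 0.00174, limma). The largest rise among genes of these 5 lists detected in both groups was 1.08, that of Sumo3, beside 1.59 for the least changed ISG15 pathway member; Ubd has only a bound. A test of that contrast between lists was not run.

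**Figure D3:**
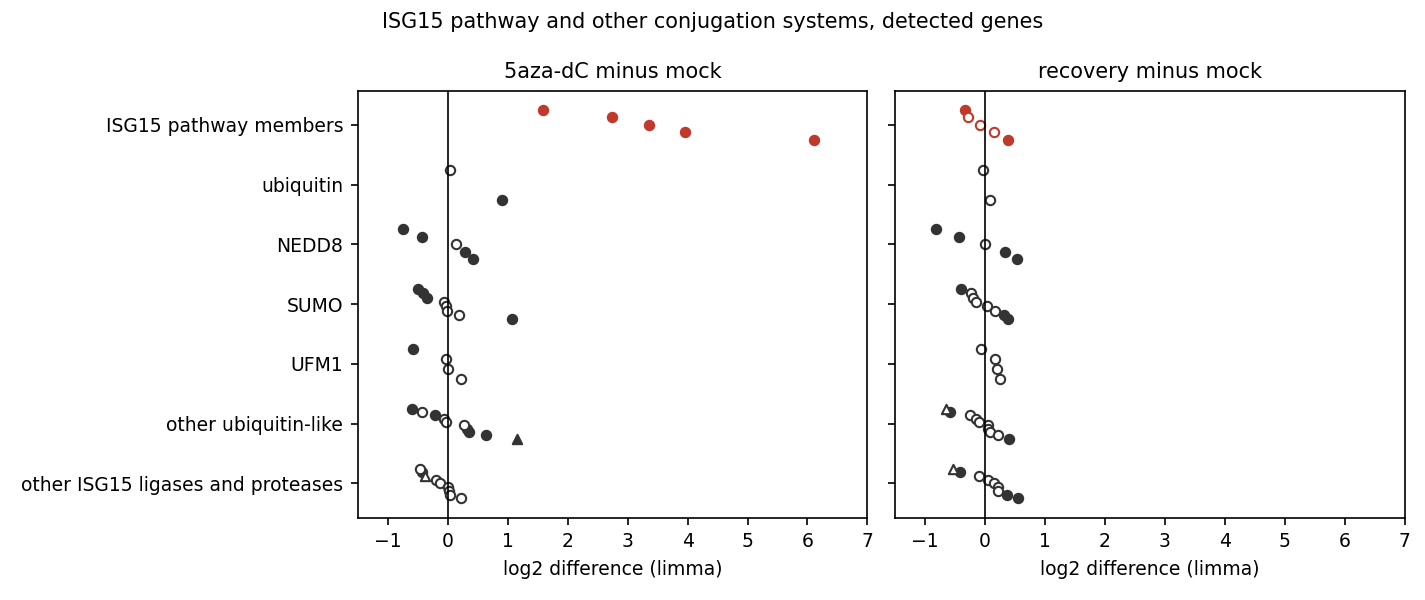
Log2 differences (limma) of the detected genes of the ISG15 pathway (red) and of other conjugation systems (black), for 5aza-dC minus mock (left) and recovery minus mock (right); filled points passed limma after adjustment, and triangles are fitted values of genes not detected in the dimmer group, which have only a bound. At left the ISG15 pathway genes lie at 1.59 to 6.11 and the black circles at or below 1.08, and at right the ISG15 pathway genes lie between -0.34 and 0.38.

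Upstream regulators of the pathway were partly higher in the same cells. Of 11 listed, 10 were measured and 8 detected, and 5 rose and 1 fell in 5aza-dC, where 30.1% and 27% of all detected genes did. Their median was 1.24. Irf9, a DNA-binding partner of STAT2, rose by 2.80 ± 0.09 and Irf1 by 1.86 ± 0.07, while Irf7 and Stat2 were at least 4.98-fold and 4.88-fold higher. Their adjusted p-values ran from 3.30e-06 for Irf7 to 2.69e-04 for Stat2 (limma). Irf3, which is activated as a protein in antiviral signalling, differed by 0.05 ± 0.07 and Ifnar2, the receptor subunit that USP18 binds, by -0.11 ± 0.11, and neither passed. Skp2, part of a ubiquitin ligase that targets USP18 in human cells, fell by 0.67 ± 0.14 (adjusted p = 0.00706, limma). In recovery minus mock 2 of the 8 rose and none fell by limma, where 22% and 18.4% of all genes did. At an unadjusted p below 0.05, for which no share over all genes was computed, 1 was lower.

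Genes of proteins known to carry ISG15 were a mixed group. Of 17 names listed, which give Ddx58 under an older and a newer name, 12 were measured and 8 detected, and 4 rose and 1 fell in 5aza-dC, where 30.1% and 27% of all detected genes did. The median difference was 0.71, and 0.47 when Ddx58 and Mx1 were set to their bounds. Gbp2, an interferon-induced GTPase, rose by 3.98 ± 0.11, and Eif2ak2, the RNA-activated kinase PKR, by 3.17 ± 0.08. Ddx58, the RNA sensor RIG-I, and Mx1, an antiviral GTPase, were at least 4.91-fold and 1.62-fold higher. Eif4e2, a cap-binding protein, fell by 0.52 ± 0.08 (adjusted p = 0.00154, limma). Conjugation of ISG15 to any protein was not measured.

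The genes most like each member were found by the distance between log2 levels in the 3 groups, each centred on its own mean, over 8977 detected genes. For Isg15 they were the interferon-induced GTPases Gbp3 (distance 0.20) and Gbp2 (0.49), and for Usp18 the antiviral genes Rsad2 (0.52) and Mx2 (0.67). For Uba7 they were Phf11d (0.14) and Cyp2c55 (0.18), for Ube2l6 Parp10 (0.07) and Ckb (0.08), and for Trim25 Prxl2a (0.02) and Sdcbp2 (0.03). Mx2, Cyp2c55, Parp10 and Sdcbp2 were not detected in mock, so their distances and their order rest at least in part on levels not above background. Ckb encodes the brain-type creatine kinase and Parp10 a mono-ADP-ribosyltransferase.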

How the data were processed

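TRIZOL was used for extraction and a TotalPrep kit for amplification and labelling, per the labels' protocols. The deposited tables hold, for 1 column per group, intensity without normalization and a detection p-value per probe, per the file headers, and intensity that the authors background-subtracted and scaled, as read from its values (a mean of 224.5 in each column). Their software was not given in the sources used here. There were 0 columns of other samples.

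The detection p-values moved in steps that fit 2 arrays per column. The arrays were solved from both tables, with scale factors of 1.177 and 0.684 in mock, 1.137 and 0.940 in 5aza-dC and 1.246 and 1.062 in recovery (array 1 has the larger factor, and numbers pair nothing across groups). The misfit of the p-values had an SD of 8.82e-04 to 9.81e-04, against 0.0288 to 0.0381 with 1 array. The scaled means of the 6 arrays came to 224.4 to 224.7. The solution ties the mean of each pair closely to that of the authors' values, so only the closeness within a pair was free.

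Columns and arrays were each normalized with limma 3.58.1 in R 4.3.3 (normexp with detection p-values, offset 16, quantile, log2). A gene was represented by the probe with the highest mean, and tested if detected at a p-value below 0.01 in at least 1 group. A call at 2-fold between columns has no replicate check. The arrays were fitted with lmFit and eBayes over 8982 genes, the residual degrees of freedom being 3 and the prior ones 3.70, and p-values were adjusted by Benjamini-Hochberg in each comparison, with a threshold of 0.05. Where a gene was not detected in the dimmer group, the fold is a bound from mean levels. Each array of that group counts at its lowest detected level, or at the gene's own level if higher. The number of arrays limits the precision. In data simulated from the 8982 genes for the comparison of 5aza-dC minus mock, limma recovered 48% of genes changed by 0.5, 86% of those changed by 1 and 100% of those changed by 2 or 4 (log2), and 6.18% of its calls were false. Only a small share of the genes was changed there, with independent normal noise, so these rates may differ in the data.

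The members, lists and tests were chosen with earlier results of these data known. Named genes are the members, their 2 nearest genes by pattern, and up to 4 detected genes of each list with the largest difference of 5aza-dC minus mock; Irf3, Ifnar2, Skp2, Eif4e2, S100a4 and Col1a1 were named beside these after their values were seen. Probe names came from the platform annotation (34885 probes with 1 symbol, 18 with several, left out, and 10378 not listed). Alternatives were the background correction, offset, scaling, series matrix values, detection filter, probe choice and leaving out each array.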

Additional observations from a re-analysis of the deposited data

How the results depend on the processing

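All 5 members kept their direction and passed limma in 5aza-dC minus mock and in recovery minus 5aza-dC under each of 13 alternatives, leaving out each array included. Recovery minus mock was less stable. There the count of members that passed, 2, was 0 when arrays were scaled to their median and 1 without a detection filter, and it ran from 0 to 2 when each array was left out. With scaling to the median Uba7 was -0.11 in place of 0.15, and neither value passed. The cause was not tested. The counts of 2-fold differences between columns stayed within 1.5 times of 5, 0 and 5 under all 8 alternatives; averaging all probes took Trim25 below 2-fold. Over all genes, 2-fold differences of 5aza-dC minus mock numbered 844, and 448 with an offset of 50, 333 without background correction and 551 with all probes averaged. For recovery minus mock they numbered 295 and ran from 81 to 540, and for recovery minus 5aza-dC 474 and from 185 to 664. By limma the genes that passed were 5131 in 5aza-dC minus mock (987 to 5328), 3633 in recovery minus mock (360 to 4054) and 3821 in recovery minus 5aza-dC (534 to 4552). Low signal over background limits the size of the differences of Usp18, Uba7 and Ube2l6, whose mock and recovery levels are near it. No paired analysis was possible because the labels give no replicate numbers and the recovered arrays carry none.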
